A study of Homo sapiens with 12 samples.

Results

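Integrins and intercellular adhesion molecules (ICAMs) were examined in the human acute myeloid leukemia lines MOLM-13 and THP-1. The genes were chosen by name from families that leukocytes use for adhesion: the integrin alpha chains ITGA4, ITGA5, ITGA6, ITGAL and ITGAV, the beta chains ITGB1, ITGB2 and ITGB7, and the ligands ICAM1 and ICAM3. All 10 were found among the 20030 gene rows of the expression table. The study sequenced mRNA from 12 libraries in 4 groups of 3. Control cells of each line received DMSO. MOLM-13 cells were incubated with 0.5 μM Jiyuan oridonin A (JOA, an ent-kaurene diterpenoid) and THP-1 cells with 2 μM, all for 48 h. This time is that of the sequencing methods, and the legend of the paper's sequencing figure gives a longer one. Both lines carry rearrangements of MLL. MOLM-13 also carries an internal tandem duplication in FLT3, while FLT3 is wild type in THP-1. Each line stands for 1 leukemia, line and dose differ together, and the sample records do not say whether the 3 libraries of a group came from separate cultures. The legend of the sequencing figure mentions 2 independent experiments, without assigning libraries to them. The p-values therefore measure the spread between libraries, which may be technical.

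Integrins are receptors made of 1 alpha and 1 beta chain, and the pair decides what the cell can hold on to. On leukocytes, ITGB1 joins ITGA4 to make the receptor for VCAM1 and fibronectin known as VLA-4, and joins ITGA5 or ITGA6 to make receptors for fibronectin or laminin. ITGB2 is the beta chain of the leukocyte-restricted integrins. With ITGAL it makes LFA-1, whose ligands include ICAM1 and ICAM3, and it also pairs with ITGAM (CD11b) and ITGAX (CD11c). ITGB7 pairs with ITGA4 or ITGAE, and ITGAV pairs with several beta chains, among them ITGB1 and ITGB5. Talin and kindlins bind the tails of the beta chains inside the cell and switch the receptor to its active form.

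Expression was given by the authors as FPKM, which scales fragments to transcript length and library size, so that levels can be set side by side between genes. Read counts and total depth are not known from FPKM. Relative depth came from the most common ratio of low values (under 0.1 FPKM) between a library and control replicate 1 of its line. It was 0.867 to 1.00 in MOLM-13 cells and 0.923 to 1.07 in THP-1 cells. Within a line, log2 values of any pair of libraries correlated at 0.990 to 0.995 in MOLM-13 and 0.987 to 0.993 in THP-1. Of 13 myeloid markers, 12 had a mean of at least 1 FPKM in all 4 groups. The exception was CD14, at 0.144 ± 0.106 and 0.548 ± 0.322 FPKM (SD, n = 3) in control MOLM-13 and THP-1 cells. Summed over 8 lymphoid markers the level was 1.69 to 4.12 FPKM in MOLM-13 control libraries and 1.22 to 1.74 in THP-1 control libraries, and over 9 markers of other lineages it was 0.237 to 0.467 and 0.861 to 3.05. With JOA the lymphoid sum was 2.29 to 2.49 in MOLM-13 and 0.902 to 1.16 in THP-1, below every control there, and that of other lineages was 0.375 to 0.423 and 1.20 to 1.93. HBB, PF4 and CDH5 were listed at 0 throughout, while CD3D had a mean of 2.83 FPKM in MOLM-13 controls and GP9 of 1.28 in THP-1 controls. Their part in the results was not tested. Bulk RNA cannot tell fewer cells expressing a gene from less RNA per cell.

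The lines differed in which chains led. In control MOLM-13 cells the most abundant member was ITGAL, at 125 ± 3.22 FPKM (SD, n = 3). It was followed by ITGB2 at 78.4 ± 3.84, ITGA5 at 39.3 ± 2.89 and ITGB1 at 32.5 ± 1.19. ICAM3 at 24.7 ± 3.39 and ITGA4 at 24.7 ± 2.69 came next, and their ranges overlapped. Below them were ITGB7 at 8.44 ± 0.653, ICAM1 at 2.79 ± 1.27, ITGAV at 1.92 ± 0.245 and ITGA6 at 0.479 ± 0.166, and among these the ranges of ICAM1 and ITGAV overlapped. In control THP-1 cells the order began with ITGB2 at 145 ± 16.0 FPKM, ITGB1 at 82.1 ± 2.87, ITGA4 at 51.5 ± 2.10 and ITGA5 at 43.7 ± 1.52, none of which overlapped its neighbour. ITGAL was only the fifth, at 12.3 ± 2.52 FPKM. ITGAV (7.78 ± 0.398), ICAM3 (7.17 ± 2.15) and ITGB7 (4.97 ± 0.515) followed with ranges that overlapped from one to the next. ITGA6 (2.10 ± 1.00) and ICAM1 (1.03 ± 0.302) were the lowest and also overlapped.

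**Figure D1:**
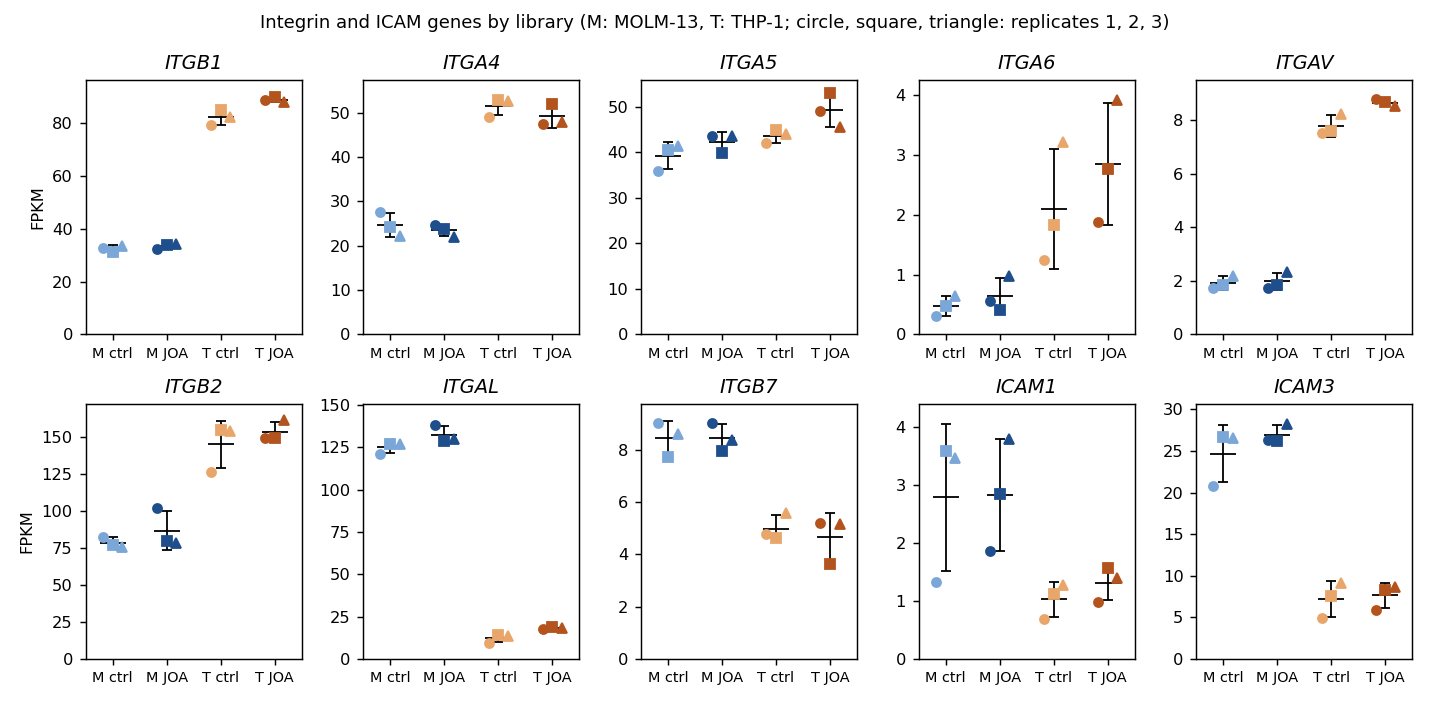
FPKM of the 10 integrin and ICAM genes in each library, with 4 groups along each horizontal axis (M ctrl and M JOA are MOLM-13, T ctrl and T JOA are THP-1). Points are libraries, with replicate 1, 2 and 3 as circle, square and triangle, and the horizontal mark and bars are the mean and SD of 3 libraries. ITGAL sits above 121 FPKM in every MOLM-13 library and at 19.1 or less in every THP-1 library, while ITGB1, ITGA4 and ITGAV are higher in all THP-1 libraries.

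Control THP-1 cells were compared with control MOLM-13 cells by limma on log2(FPKM + 0.1), a scale that understates changes of weakly expressed genes. Calls needed both an adjusted p (Benjamini-Hochberg, over all genes) under 0.05 and a log2 difference of 0.58 or more in either direction. Of the members, 9 of 10 were called, 5 higher and 4 lower in THP-1 cells. The lines differ widely in general: 5559 of 12635 tested genes were called (44.0%), 25.0% higher and 19.0% lower, and 74.8% had control values that did not overlap, as had all 10 members. The median log2 fold change was 0.52 over the members and 0.06 over all tested genes.

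Among the member chains that pair with ITGB1, ITGAV had the largest fitted log2 difference. It belongs to receptors for vitronectin and other ligands with an RGD motif. ITGA6, at 1.86 (SE 0.33), was close, and the added 0.1 understates this weaker gene more, so their order is not settled. ITGAV was at 1.73, 1.83 and 2.20 FPKM in the MOLM-13 control libraries and at 7.52, 7.59 and 8.24 in those of THP-1. The groups lay far apart, with a log2 fold change of 1.97 (SE 0.11; limma, adjusted p = 1.07e-06), or 3.91-fold. ITGB1 itself was at 32.7, 31.2 and 33.6 FPKM in MOLM-13 and at 79.1, 84.8 and 82.3 in THP-1. Its standard error of 0.06 around a log2 fold change of 1.33 was the smallest among the members (adjusted p = 3.29e-07 by limma). ITGA4, the alpha chain of VLA-4, was at 27.6, 24.2 and 22.3 FPKM in MOLM-13 and at 49.1, 52.8 and 52.7 in THP-1. It was 2.09-fold higher in THP-1 (log2 fold change 1.06 with an SE of 0.08, adjusted p = 9.48e-06 by limma).

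ITGA4 (181457205 to 181538940), ITGA6 (172427336 to 172506459) and ITGAV (186590056 to 186680901) all lie on chromosome 2, ITGB1 on chromosome 10 (32900318 to 32958230) and ITGA5 on chromosome 12 (54395261 to 54419266). ITGA6, a laminin receptor chain, was weakly expressed and variable, at 0.313, 0.480 and 0.645 FPKM in MOLM-13 and at 1.25, 1.84 and 3.20 in THP-1. They differed by 1.86 on the log2 scale (SE 0.33), with an adjusted p of 0.00118 by limma. The fibronectin receptor chain ITGA5 was the member that was not called. Its values of 36.0, 40.4 and 41.4 FPKM in MOLM-13 and 42.0, 45.0 and 44.0 in THP-1 did not overlap but were close, with a log2 fold change of 0.15 (95% interval -0.0031 to 0.31, adjusted p = 0.0728 by limma). The summed level of ITGA4, ITGA5, ITGA6 and ITGAV was 2.04 ± 0.0864 times that of ITGB1 in control MOLM-13 cells and 1.28 ± 0.0297 times in control THP-1 cells (SD, n = 3). Summed, these alpha chains were thus higher in THP-1 by a smaller factor than ITGB1. The sum holds no other alpha chains, and ITGA4 and ITGAV also pair with other beta chains.

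The chains of LFA-1 differed in opposite directions. ITGAL lies on chromosome 16 (30472742 to 30523185, GRCh38.p14) and ITGB2 on chromosome 21 (44885953 to 44928815). ITGAL was at 121, 127 and 127 FPKM in the MOLM-13 control libraries and at 9.37, 13.9 and 13.6 in those of THP-1. It was 10.3-fold higher in MOLM-13, the largest difference among the members (log2 fold change -3.36 in THP-1 with an SE of 0.14, adjusted p = 2.92e-07 by limma). ITGB2 was at 82.7, 77.1 and 75.4 FPKM in MOLM-13 and at 127, 155 and 154 in THP-1. Here THP-1 was higher, by 0.88 on the log2 scale (standard error 0.09, adjusted p = 3.82e-05 by limma). The ratio of ITGB2 to ITGAL was thus 0.628 ± 0.0471 in control MOLM-13 cells and 12.0 ± 1.32 in control THP-1 cells (SD, n = 3). ITGAM and ITGAX, which also pair with ITGB2, were expressed at low levels. With them added to ITGAL, the sum was 18.5 ± 4.59 FPKM in control THP-1 cells against 131 ± 5.14 in MOLM-13. ITGB7, a chain used in homing to mucosa, was at 4.60 to 5.56 FPKM in the THP-1 control libraries and higher in every MOLM-13 control library, the lowest of which was at 7.72 (log2 fold change -0.75 with an SE of 0.10, adjusted p = 0.000181 by limma). ITGB7, on chromosome 12 (53191323 to 53207251), overlaps ZNF740 on the opposite strand over 3824 bp. The library kit keeps strand, but whether the counting used it is not given in the sources used here. ZNF740 was at 12.4 and 11.2 FPKM in control MOLM-13 and THP-1 cells.

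Both ICAM genes were lower in THP-1 cells. ICAM3, which resting leukocytes carry, was at 20.8, 26.7 and 26.6 FPKM in MOLM-13 and at 4.87, 7.51 and 9.13 in THP-1, a log2 fold change of -1.81 (SE 0.21; limma, adjusted p = 9.93e-05). ICAM1, which inflammatory signals induce in many cell types, was at 1.33, 3.58 and 3.46 FPKM in MOLM-13 and at 0.691, 1.12 and 1.27 in THP-1. The lowest MOLM-13 library was thus just above the highest of THP-1, and the log2 fold change of -1.27 had a wide standard error of 0.37 (adjusted p = 0.0145 by limma). The ICAM1 call was lost without MOLM-13 control replicate 3 (adjusted p = 0.0538 by limma) or THP-1 control replicate 1 (0.0524). The other ICAM genes went the same way: ICAM2, ICAM4 and ICAM5 were all called lower in THP-1, with log2 fold changes of -1.43, -2.41 and -2.60 (adjusted p of 1.30e-06, 1.95e-05 and 0.000283 by limma). ICAM5 had a mean of only 0.147 FPKM in THP-1 controls, so its fold size depends on the added 0.1. On GRCh38.p14, ICAM1 (10271120 to 10286615) and ICAM3 (10333776 to 10339624) lie on chromosome 19 with ICAM4 and ICAM5 between them, and ICAM2 is on chromosome 17.

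**Figure D2:**
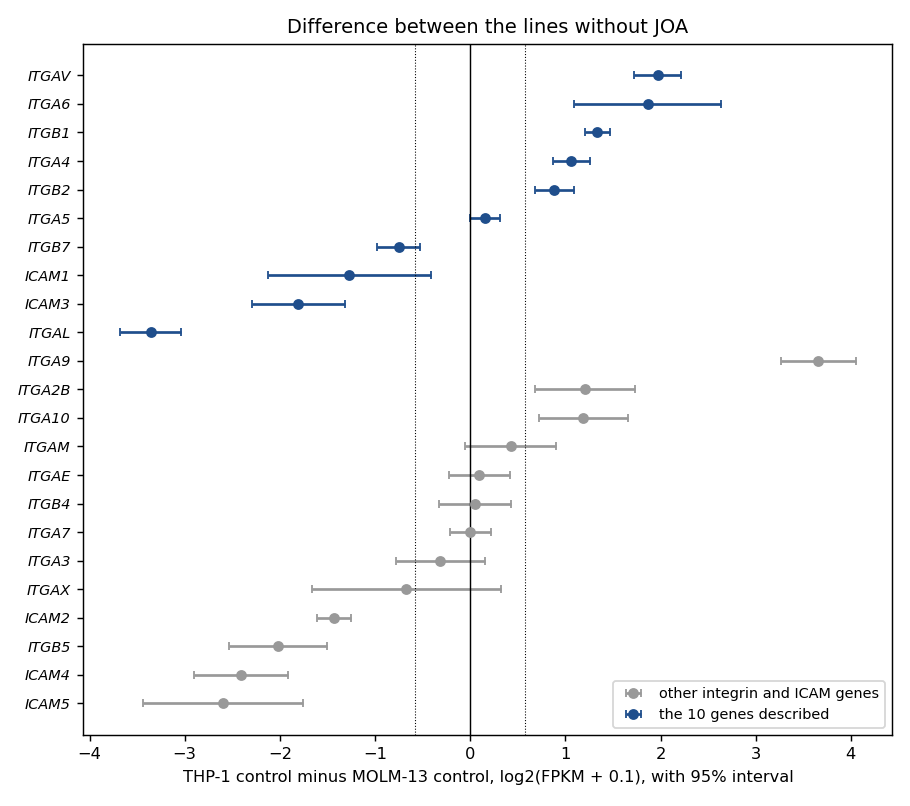
Difference between control THP-1 and control MOLM-13 cells on the log2(FPKM + 0.1) scale, with the 95% interval from limma (3 libraries against 3), for the 10 genes described (blue) and the other tested integrin and ICAM genes (grey). The solid line is no difference and the dotted lines mark 0.58 in size. ITGAL lies at -3.36 and ITGAV at 1.97, and every ICAM gene lies to the left of 0.

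Promoter sequences are given for 4 members, as examples of genes called in either direction between the lines. RefSeq promoters on GRCh38.p14 matched 8 of the 10 members by symbol, all but ITGAL and ITGB2. The 250 bases before the outermost start are given here for ITGB1 and ITGAV, higher in THP-1, and for ICAM1 and ICAM3, lower in THP-1. Capitals mark matches on either strand to the ETS core GAGGAA, which PU.1 and its relatives can bind, to the SP1 box GGGCGG, or to the NF-κB element GGAAATTCC, and no matches overlap in these windows. ITGB1 is on the minus strand of chromosome 10 (32958231 to 32958480), ITGAV on the plus strand of chromosome 2 (186589806 to 186590055), ICAM1 on the plus strand of chromosome 19 (10270870 to 10271119) and ICAM3 on its minus strand (10339625 to 10339874).
ITGB1: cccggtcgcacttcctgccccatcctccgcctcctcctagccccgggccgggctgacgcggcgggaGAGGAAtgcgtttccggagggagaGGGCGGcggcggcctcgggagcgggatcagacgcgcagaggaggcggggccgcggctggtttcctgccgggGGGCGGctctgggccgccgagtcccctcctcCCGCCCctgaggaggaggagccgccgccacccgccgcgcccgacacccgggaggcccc
ITGAV: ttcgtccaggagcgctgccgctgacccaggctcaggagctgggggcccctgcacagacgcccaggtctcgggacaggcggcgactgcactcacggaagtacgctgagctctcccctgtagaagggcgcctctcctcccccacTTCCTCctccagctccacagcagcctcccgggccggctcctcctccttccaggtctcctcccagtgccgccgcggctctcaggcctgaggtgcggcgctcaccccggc
ICAM1: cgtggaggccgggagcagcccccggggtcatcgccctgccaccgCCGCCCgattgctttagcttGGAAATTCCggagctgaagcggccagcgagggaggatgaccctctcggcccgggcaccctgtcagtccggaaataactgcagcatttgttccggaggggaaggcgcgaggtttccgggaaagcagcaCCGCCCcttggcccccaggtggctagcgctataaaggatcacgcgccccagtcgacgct
ICAM3: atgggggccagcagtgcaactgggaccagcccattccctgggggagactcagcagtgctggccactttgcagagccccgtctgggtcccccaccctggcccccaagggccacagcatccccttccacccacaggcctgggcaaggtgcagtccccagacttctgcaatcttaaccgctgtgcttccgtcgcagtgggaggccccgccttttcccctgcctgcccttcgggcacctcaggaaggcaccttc

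The ITGB1 window was 78.4% G and C and held 3 SP1 boxes and 1 ETS core. ITGAV held 1 ETS core and ICAM3 held 0 matches to any of these motifs. ICAM1 held 2 SP1 boxes and the NF-κB element. Among 35116 RefSeq promoter windows of the same length, 42.6% held an SP1 box, 23.6% an ETS core and 0.413% the NF-κB element. A match is a description of the letters only.

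JOA was then compared with control in each line with the same fit and thresholds. In THP-1 cells 0 of the 10 members were called, where 17 of 12712 genes were (0.134%), a count that fell to 0 or 1 when any 1 of the 6 libraries was left out. An unadjusted p under 0.05 was found for 4 members and for 16.9% of all genes. Control and JOA libraries with the same replicate number varied together, and adding that number to the fit as a block called 1 member, ITGAL, against 161 genes in all (1.27%). The JOA values lay wholly above the control values in 4 members (ITGA5, ITGAL, ITGAV and ITGB1). Groups did not overlap for 23.4% of all genes, with JOA higher in 14.6% and lower in 8.81%. JOA was higher in all 3 same-numbered pairs for 6 members and lower in all 3 for ITGA4, against 29.3% and 19.4% of genes. The median log2 fold change was 0.13 over the members and 0.02 over all genes.

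ITGAL showed the largest difference. It was at 9.37, 13.9 and 13.6 FPKM in the THP-1 control libraries and at 17.3, 19.1 and 18.3 with JOA. Every JOA library was above every control library, and the lowest control was replicate 1. The difference of 0.59 on the log2 scale (standard error 0.14) had an adjusted p of 0.101 by limma and of 0.0156 with the replicate block. Without control replicate 1 the log2 fold change was 0.40 (adjusted p = 0.116 by limma), and leaving out the other libraries 1 at a time gave 0.55 to 0.68. Even with JOA, ITGAL in THP-1 cells stayed far below its level in MOLM-13.

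The chains that pair with ITGB1 differed less. ITGA5 was at 42.0, 45.0 and 44.0 FPKM in control THP-1 cells and at 49.2, 53.0 and 45.6 with JOA (log2 fold change 0.17, adjusted p = 0.231 by limma). ITGB1 was at 79.1, 84.8 and 82.3 FPKM and at 88.7, 89.7 and 87.9 with JOA, which is 0.11 on the log2 scale (limma, adjusted p = 0.257). ITGAV was at 7.52, 7.59 and 8.24 FPKM and at 8.78, 8.66 and 8.51 with JOA, which is 0.15 on the log2 scale (limma, adjusted p = 0.257). In these 3 genes the groups were separate but close, and their 95% intervals reached at most 0.32. ITGA6 was at 1.25, 1.84 and 3.20 FPKM in control and at 1.87, 2.77 and 3.91 with JOA, so that the groups overlapped while each JOA library exceeded its same-numbered control. Its log2 fold change of 0.46 had an adjusted p of 0.552 by limma, and of 0.0283 with the replicate block, where it stayed under the fold threshold. ITGA4 was the exception in direction, at 49.1, 52.8 and 52.7 FPKM in control and 47.5, 52.0 and 48.0 with JOA (log2 fold change -0.07, 95% interval -0.20 to 0.06).

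ITGB2, ITGB7 and the ICAM genes overlapped between control and JOA in THP-1 cells. ITGB2 was at 127, 155 and 154 FPKM in control and 150, 150 and 161 with JOA. The log2 fold change of ITGB2 was 0.09 (95% interval -0.11 to 0.28) and turned to -0.0097 without control replicate 1. ITGB7 had a log2 fold change of -0.10 (95% interval -0.44 to 0.23). ICAM1 was at 0.691, 1.12 and 1.27 FPKM in control and 0.980, 1.57 and 1.39 with JOA, each pair higher with JOA (log2 fold change 0.34, 95% interval -0.21 to 0.89, adjusted p = 0.522 by limma). ICAM3 was at 4.87, 7.51 and 9.13 FPKM in control and 5.91, 8.31 and 8.66 with JOA (log2 fold change 0.11, 95% interval -0.42 to 0.65, and -0.14 without control replicate 1). Control replicate 1 was the lowest THP-1 control library in 9 of the 10 members, and in 32.7% of 10067 genes with a mean of at least 1 FPKM.

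In MOLM-13 cells 0 members were called at 0.5 μM JOA, with or without the replicate block, and 0% of the 11693 tested genes were called in either fit. The smallest adjusted p over all genes was 0.406 by limma, and 481 genes had an unadjusted p under 0.05, 0 of them members. ITGAL was the member whose groups did not overlap, as in 9.65% of all genes. It was at 121, 127 and 127 FPKM in control and 138, 129 and 130 with JOA, a log2 fold change of 0.08 (95% interval -0.05 to 0.22). JOA was higher in all 3 pairs for ITGAL, ITGAV and ITGB2 and lower in all 3 for ITGA4, against 18.5% and 15.7% of genes. ITGB2 was at 82.7, 77.1 and 75.4 FPKM in control and 102, 80.1 and 78.4 with JOA, where replicate 1 stood above the others (log2 fold change 0.14, 95% interval -0.10 to 0.37).

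The remaining members of MOLM-13 cells gave log2 fold changes from -0.07 for ITGA4 to 0.33 for ITGA6. For all members but ITGA6 and ICAM1 the 95% intervals lay between -0.28 and 0.37, inside the fold threshold. The intervals were wide for the weakly expressed genes, from -0.38 to 1.05 for ITGA6 and from -0.78 to 0.95 for ICAM1, so that a change of the threshold size was not detectable in them. ICAM1 followed the replicate number, with 1.33 FPKM in control replicate 1 and 1.85 in JOA replicate 1 against 2.84 to 3.79 in the other 4 libraries. Its log2 fold change of 0.09 was -0.36 without control replicate 1. ICAM3 was at 20.8, 26.7 and 26.6 FPKM in control and 26.4, 26.2 and 28.3 with JOA, and control replicate 1 was again the lowest.

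**Figure D3:**
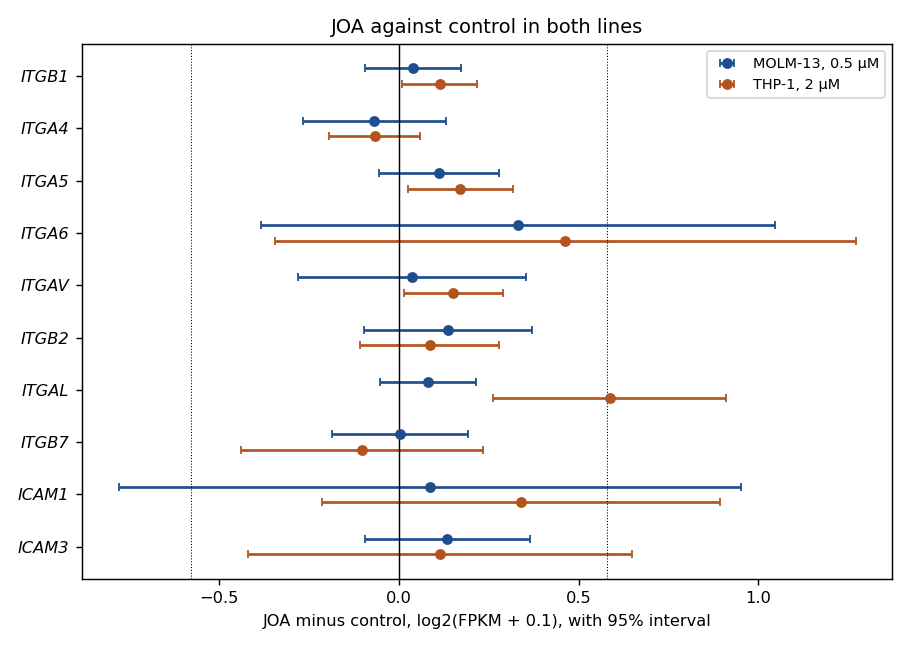
Difference between JOA and control on the log2(FPKM + 0.1) scale for the 10 genes, with the 95% interval from limma (3 libraries against 3), in MOLM-13 cells at 0.5 μM (blue) and THP-1 cells at 2 μM (brown). The dotted lines mark 0.58 in size. The interval of ITGAL in THP-1 cells runs from 0.26 to 0.91, and those of ITGA5, ITGAV and ITGB1 there also lie above 0, while the other intervals hold 0.

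An interaction term for line and treatment, fitted over all 12 libraries, asked whether the lines differed in their response to JOA. None of the 10 members passed an adjusted p of 0.05 by limma, nor did any of 12626 genes (0%), and 914 genes had an unadjusted p under 0.05. With the replicate block 6 genes passed (0.0475%), 0 of them members. ITGAL had the largest difference among the members, 0.51 higher in THP-1 on the log2 scale (95% interval 0.15 to 0.86, unadjusted p = 0.00961, adjusted p = 0.520 by limma, 0.116 with the block). For ITGB1 the difference was 0.07 (95% interval -0.07 to 0.22). Since the doses differ between the lines, line and dose cannot be told apart here.

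Of 18 other integrin genes, 7 passed the filter of a mean of 0.1 FPKM in the MOLM-13 comparison and 11 in that of THP-1, and 0 were called with JOA in either line. ITGAM, which is the alpha chain of Mac-1, was at 2.81, 4.43 and 4.58 FPKM in control THP-1 cells and 6.77, 6.47 and 5.94 with JOA. Its groups did not overlap, with a difference of 0.71 on the log2 scale (limma, adjusted p = 0.103, 0.0348 with the replicate block, where it was called). The paper, which used DESeq, lists ITGAM among the genes raised by JOA in THP-1 cells. It also reports more CD11b protein on these cells by flow cytometry, after a longer incubation. ITGAX was at 1.05, 2.57 and 3.28 FPKM in control and 2.86, 3.73 and 3.95 with JOA (0.72 on the log2 scale, adjusted p of 0.364 by limma and 0.0622 with the block). The groups of ITGAX overlapped, and control replicate 1 was the lowest library for ITGAM and ITGAX, as for ITGAL. In MOLM-13 cells ITGAM (log2 fold change 0.39) and ITGAX (0.41) both had an adjusted p of 1.00 by limma. ITGA7 (6.61 and 6.59 FPKM in control MOLM-13 and THP-1 cells) and ITGAE (1.29 and 1.38) were alike in both lines. Between the control lines, 4 of 10 tested were called, where 44.0% of all genes were. ITGB5, a partner of ITGAV, was lower in THP-1 (log2 fold change -2.02, adjusted p = 7.18e-05 by limma). ITGA9 (log2 fold change 3.66), ITGA2B and ITGA10 were higher in THP-1. Their means were 0.00650, 0.0232 and 0.0350 FPKM in MOLM-13 controls and 1.25, 0.179 and 0.209 in THP-1 controls. They passed the filter only through THP-1, so they could enter the count only as higher there. Their fold sizes depend on the added 0.1.

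**Figure D4:**
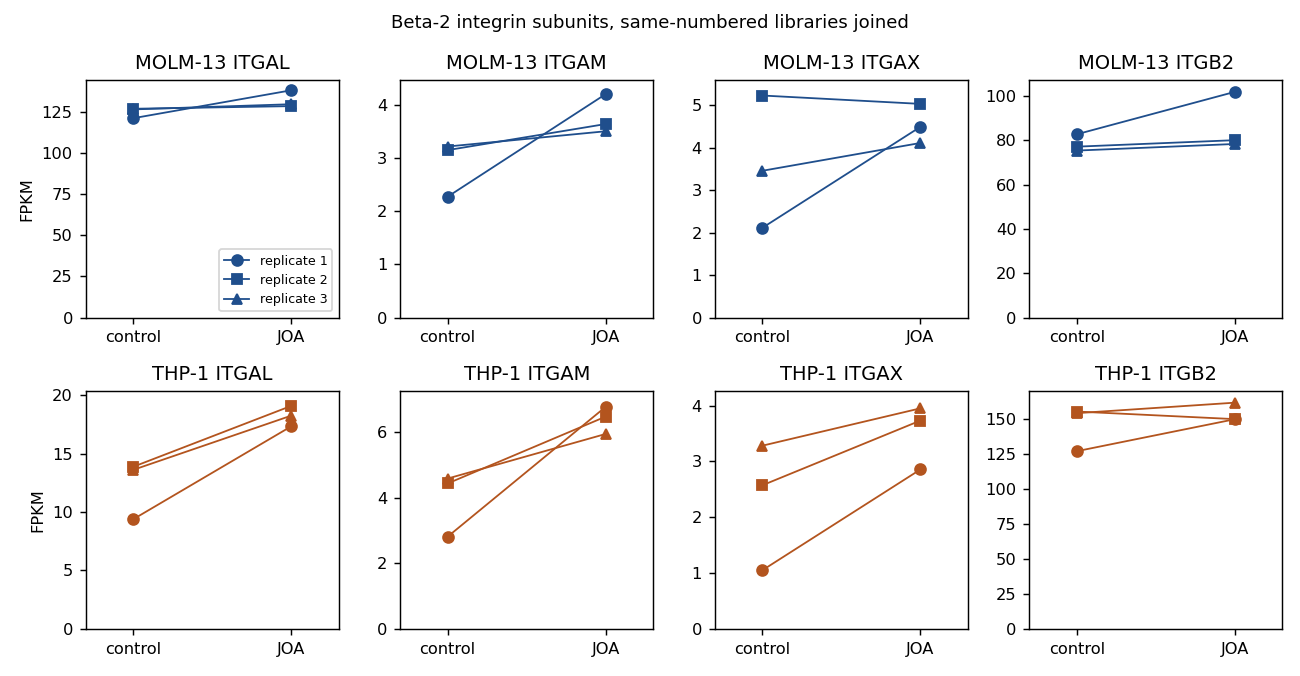
FPKM of ITGAL, ITGAM, ITGAX and ITGB2 in control and JOA libraries of MOLM-13 (upper row) and THP-1 (lower row), with same-numbered libraries joined by a line. In THP-1 cells each JOA library lies above its same-numbered control for ITGAL (9.37, 13.9 and 13.6 against 17.3, 19.1 and 18.3 FPKM), ITGAM and ITGAX, while ITGB2 starts at 127 to 155 FPKM and ends at 150 to 161.

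Genes that work with integrins were counted from lists of known function. Of 13 activators (talins, kindlins, RAP1 and their adaptors), 0 were called with JOA in either line. SKAP2, an adaptor in the activation of ITGB2 integrins, was just under the fold threshold in THP-1 cells. It was at 6.13, 6.11 and 5.71 FPKM in control and 9.61, 8.77 and 8.48 with JOA, which is 0.57 on the log2 scale (limma, adjusted p = 0.0394). FERMT3, the kindlin of blood cells, had a log2 fold change of 0.24 (limma, adjusted p = 0.105). None of 4 inhibitors and none of 13 genes of the adhesion complex were called. Of 10 surface partners, 0 were called and 6 had an unadjusted p under 0.05 in THP-1 cells, against 16.9% of all genes. All 6 were higher with JOA and without overlap, where 14.6% of all genes were. PLAUR, the urokinase receptor, was at 4.72, 5.23 and 4.38 FPKM in control and 7.15, 7.44 and 6.79 with JOA (log2 fold change 0.57, adjusted p = 0.0459 by limma), again under the fold threshold. The tetraspanin CD82 had a log2 fold change of 0.48 (limma, adjusted p = 0.0727).

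Between the control lines, 4 of 13 activators, 1 of 4 inhibitors, 5 of 12 tested adhesion complex genes and 2 of 10 surface partners were called, where 44.0% of all genes were. Among kindlins, FERMT3 (log2 fold change 1.40) and FERMT2 (3.57) were higher in THP-1 and FERMT1 (-1.24) lower, and the small GTPase RAP1B was higher (0.77). The inhibitor SHARPIN was lower (-0.99). Of the adhesion complex, LIMS1, ACTN1 and BCAR1 were higher and PTK2 and PTK2B lower, and of the surface partners the tetraspanins CD9 (1.78) and CD63 (1.56) were higher. PTK2, which encodes focal adhesion kinase, was at 2.02 ± 0.254 FPKM in MOLM-13 and 0.131 ± 0.0626 in THP-1 (SD, n = 3). Of 10 integrin ligands that cells can make or carry, 1 passed the filter in MOLM-13 and 4 in THP-1, where FN1 (2.28) and SPP1 (1.24) were called higher, and VCAM1 and MADCAM1 stayed below 0.1 FPKM in all groups. Of 9 other leukocyte adhesion genes 7 were tested, and 6 were called where 44.0% of all genes were. PECAM1, ALCAM and ESAM were called higher in THP-1 and SELPLG, CD44 and SPN lower (log2 fold changes of 0.65, 1.61, 2.05, -1.35, -1.47 and -1.42), with 0 called with JOA in either line. FERMT2, FN1, SPP1 and ESAM had means of 0.00394, 0.0606, 0.0316 and 0.0300 FPKM in MOLM-13 controls. In THP-1 controls these were 1.14, 0.676, 0.204 and 0.427. The filter was thus passed only through THP-1, so these genes could enter the counts only as higher there. Their fold sizes depend on the added 0.1.

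With the mean of each line removed, the 5 genes whose log2 values followed ITGAL most closely over the 12 libraries were FUT4 (Pearson r = 0.921), GUSB (0.917), CARD19 (0.916), RAPGEF1 (0.914) and TPP1 (0.912). For ITGA6, the member with the largest difference in MOLM-13 cells, they were CCDC125 (r = 0.939), ZNF776 (0.936), SLC44A1 (0.916), FCHSD1 (0.911) and ARHGAP21 (0.909). Among the members themselves the correlations ran from -0.713 for ITGA4 and ITGAV to 0.841 for ITGA6 and ICAM3. These libraries share treatment and replicate number, so the values are descriptions.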

How the data were processed

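mRNA libraries (TruSeq Stranded) were sequenced as 150 bp paired ends. Values were deposited as FPKM, 1 per gene and library. The submitters' processing notes name Trimmomatic, HISAT2, Cufflinks, HTSeq and the build hg38, and gene annotation and counting settings are not given in the sources used here. The values were used as deposited. Groups and replicate numbers came from the sample titles.

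Genes with a mean of at least 0.1 FPKM over the libraries compared were kept, and log2(FPKM + 0.1) was fitted by limma 3.58.1 in R 4.3.3 (eBayes with trend, Benjamini-Hochberg adjustment over all genes tested). The methods name DESeq, a count test that FPKM do not allow. Adding the replicate number as a block was an alternative, as the methods state no pairing. The numbers come from the titles and pair the libraries within a line: deviations of same-numbered control and JOA libraries correlated at 0.407 to 0.580 in MOLM-13 and 0.297 to 0.541 in THP-1. In simulated libraries (200 genes changed), limma recovered 98% of those changed by a log2 fold change of 1 in MOLM-13 (11698 genes, 7 false calls) and 93% in THP-1 (12734 genes, 7 false calls). The changed genes all had a mean log2 value above 1 in control, and the noise was drawn without the pairing of libraries. ITGA6 in MOLM-13 and ICAM1 in THP-1 lay below that level, and smaller changes were not simulated. These shares are therefore not the power for the members. The members, gene lists and tests were chosen with earlier results of these data known. Named beside the members were called list genes, expressed integrins and ICAMs, the leading 1 or 2 genes of a list, and the 5 genes most like a member, apart from a few examples chosen after their values were seen. FYB was matched as FYB1.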

Additional observations from a re-analysis of the deposited data

How the results depend on the processing

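The alternatives covered the pseudocount, the filter, rescaling, eBayes without trend, the replicate block, 1 fit on all 12 libraries and leaving out each library. Leaving out replicate 1 of both groups was chosen after seeing the data. The count of 9 members called between the control lines was 9 or 8 throughout. The sources used here do not say whether replicate numbers are shared between the lines. Deviations of same-numbered control libraries correlated at 0.0757 to 0.180 between them. With the block, 5593 genes were called there. In THP-1 cells the 17 genes called with JOA became 8 with a pseudocount of 1, 0 over any value above 0, 11 with upper-quartile scaling, 1 without trend, 161 with the replicate block, 51 in the fit on all 12 libraries, and 0 to 1 with libraries left out. The replicate block and the fit on all 12 libraries each called 1 member there, ITGAL. In MOLM-13 cells 1 gene was called over any value above 0. For the interaction, a pseudocount of 1 and rescaling to TPM each called 1 gene, any value above 0 called 3, and the block 6. The cause was not tested.

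Reversals touched only fold changes that were not called. ITGB7 in MOLM-13 cells turned to -0.010 as TPM, -0.0049 with median-of-ratios and -0.017 with upper-quartile scaling. In the interaction, ITGA4 turned to -0.00077 with a pseudocount of 1, -0.024 with median-of-ratios and -0.028 with upper-quartile scaling, and ICAM3 to 0.017 as TPM. With libraries left out, log2 fold changes in MOLM-13 cells ran from -0.14 to 0.014 for ITGA4, -0.084 to 0.13 for ITGAV, -0.36 to 0.35 for ICAM1 and -0.060 to 0.049 for ITGB7. ICAM1 was -0.097 there without replicate 1 of both groups. In THP-1 cells they ran from -0.0097 to 0.14 for ITGB2, -0.14 to 0.31 for ICAM3 and -0.19 to 0.063 for ITGB7, or -0.22 for ITGB7 without replicate 1 of both groups. In the interaction they ran from -0.083 to 0.071 for ITGA4, -0.17 to 0.48 for ITGA6, -0.15 to 0.070 for ITGB2, -0.19 to 0.062 for ITGB7, -0.012 to 0.70 for ICAM1 and -0.27 to 0.18 for ICAM3. With a minimum mean of 1 FPKM, ITGA6 gave no value in MOLM-13 cells. No interval for counting error can be had from FPKM, and with 3 libraries against 3 an exact permutation test cannot go below p = 0.1.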
